A study of Homo sapiens with 12 samples.

Results

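The 57 genes described here encode DNA repair proteins. They were taken by symbol from a list covering homologous recombination, damage signalling, end joining, mismatch repair, excision repair and the Fanconi anaemia pathway, and all 57 were found among the 63677 Ensembl identifiers of the count files. RNA-seq had been run on LNCaP cells, an established androgen-responsive prostate cancer line, in which a TALEN (an engineered nuclease) had been aimed at the start codon of Bag-1L, the longest protein made from the BAG1 gene and a cochaperone of the androgen receptor. The Bag-1L KO line was set against a TALEN control line carrying no Bag-1L deletion, and each line was studied in 3 conditions. Cells were either kept in full medium (FM), for which the labels name no further treatment, or starved of hormone for 72 h in charcoal-treated serum and then given ethanol (EtOH, the vehicle) or 10 nM dihydrotestosterone (DHT, an androgen) for 16 h.

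This gave 6 groups with 2 samples each, 12 samples in all. The labels give the samples of a group only a replicate number, so the p-values below measure the spread between these samples, which may be technical. TALEN-treated cells had been cloned by serial dilution, so the KO line may be a single clone, and a difference between the lines cannot be told apart from a difference between clones. FM differs from the EtOH cultures in serum, starvation and vehicle. By the methods the starved cells were also kept in phenol red-free medium, and these factors cannot be told apart either. In bulk RNA, fewer cells of a type and less RNA per cell cannot be told apart.

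Homologous recombination copies the sister chromatid to mend a double-strand break and works mainly after DNA has been replicated: nucleases such as MRE11 and EXO1 trim the ends, BRCA1 with BARD1 and BRCA2 prepare the strand that searches for its copy, and RAD54L, RAD54B and BLM act on the joined strands. The Fanconi anaemia proteins open and clear crosslinks at stalled replication forks and hand the break on to the same machinery. End joining, base excision and nucleotide excision need no sister chromatid and run throughout the cell cycle. In prostate cancer, inherited or acquired loss of BRCA2 and its partners is a known target for drugs against PARP1.

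Promoter windows from RefSeq (build GRCh38.p14, 250 bases before to 50 bases after each annotated start, 300 bases in all) were found for 52 of the 57 genes, 76 windows in total (not for FANCI, NBN, PRKDC, RAD54B and XRCC5), and were searched on both strands for the letters read by E2F transcription factors at genes of the G1/S transition (TTTCGCGC, TTTGGCGC, TTTCCCGC or TTTGCCGC). These letters were present in 13 of the 76 windows (17.1%), against 3.31% of all 35116 windows, and in 12 of the 52 genes (23.1%), against 3.99% of all 27305 genes. The 12 genes were EXO1, XRCC2, MSH3, MSH6, PMS2, LIG1, UNG, XPC, XRCC6, FANCA, FANCC and FANCD2. Among genes that passed the test as higher in FM than in EtOH in both lines, 6 of the 20 with a window held the letters (30%), and among those higher in neither line 4 of 24 (16.7%). The CHR letters TTTGAA of mitotic genes were in 10.5% of the repair windows and 15.2% of all windows, and CCAAT was in 46.1% and 34.6%. No motif contains the letters of another. The shares over all windows and all genes were not matched for base composition or expression. A match describes the letters of the window and does not show that a factor binds there. The windows of FANCA, FANCD2 and XRCC2 are printed. These genes were higher in FM in both lines and have 1 window, with a single E2F match, given in capitals. EXO1, FANCC and MSH6 were also higher in both lines with a match, but have several windows. Most genes higher in both lines with a window, BRCA1, BRCA2, BLM and CHEK1 among them, hold no match. The window of BARD1, the gene with the largest fall under DHT, is also printed and holds none of the E2F letters. All 4 printed windows are written 5′ to 3′ on the strand of the gene.
FANCA, chr16:89816598-89816897, minus strand: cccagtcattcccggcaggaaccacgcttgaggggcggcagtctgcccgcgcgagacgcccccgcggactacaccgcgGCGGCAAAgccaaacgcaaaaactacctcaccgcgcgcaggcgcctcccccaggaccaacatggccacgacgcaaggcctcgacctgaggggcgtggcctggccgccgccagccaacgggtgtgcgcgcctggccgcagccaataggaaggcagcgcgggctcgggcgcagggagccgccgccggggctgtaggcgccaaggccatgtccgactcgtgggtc
FANCD2, chr3:10026187-10026486, plus strand: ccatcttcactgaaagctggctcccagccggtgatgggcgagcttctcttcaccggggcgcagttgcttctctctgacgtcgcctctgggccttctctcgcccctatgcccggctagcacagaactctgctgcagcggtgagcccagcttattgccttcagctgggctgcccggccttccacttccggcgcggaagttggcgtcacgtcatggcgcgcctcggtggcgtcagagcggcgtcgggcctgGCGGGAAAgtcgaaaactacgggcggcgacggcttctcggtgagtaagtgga
XRCC2, chr7:152676092-152676391, minus strand: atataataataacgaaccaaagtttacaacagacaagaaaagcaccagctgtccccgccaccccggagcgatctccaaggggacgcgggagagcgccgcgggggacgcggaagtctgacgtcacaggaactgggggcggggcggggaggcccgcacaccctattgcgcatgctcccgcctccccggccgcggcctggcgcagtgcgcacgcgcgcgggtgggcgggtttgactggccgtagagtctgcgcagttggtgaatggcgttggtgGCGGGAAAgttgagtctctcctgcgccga
BARD1, chr2:214809634-214809933, minus strand: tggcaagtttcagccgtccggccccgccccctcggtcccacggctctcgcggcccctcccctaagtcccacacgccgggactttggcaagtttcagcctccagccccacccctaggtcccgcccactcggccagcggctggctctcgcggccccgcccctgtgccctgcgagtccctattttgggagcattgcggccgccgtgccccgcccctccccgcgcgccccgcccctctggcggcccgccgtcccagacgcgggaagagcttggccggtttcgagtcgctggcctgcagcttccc
The match of FANCA begins 172 bases before the annotated start and that of FANCD2 begins 2 bases before it. In XRCC2 the match begins at base 22 of the transcript. In all 3 the capitals are the reverse complement of the letters searched.

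The gene counts summed to between 20826843 and 30354666 per sample, at which 3 counts correspond to 0.0988 to 0.144 CPM (counts scaled to library size). The lowest raw count of any repair gene in any sample was 40, for FANCB, so each of the 57 was measured above that floor in all 12 samples. The 2 control EtOH samples lay farthest apart of the 6 pairs, differing by a median of 0.238 on the log2 scale, regardless of sign, where the mean normalised count was at least 100, against 0.0765 to 0.172 in the other pairs. The difference between them (replicate 2 minus replicate 1) moved with transcript length, with a Spearman rho of -0.652 over 11228 genes and -0.793 over the 57 repair genes, so that long transcripts read lower and short ones higher in replicate 2. Other pairs showed such a trend too, with rho over all genes and over the 57 of -0.507 and -0.572 in control DHT, -0.458 and -0.651 in KO DHT, 0.44 and 0.47 in KO EtOH, -0.38 and -0.451 in KO FM and 0.167 and 0.29 in control FM. The part of this trend in the results below was not tested. BAG1 itself was counted at 2117 and 1968 in control FM and 1452 and 1576 in KO FM, at 1702 and 2703 against 1191 and 1103 in EtOH, and at 2199 and 2631 against 1076 and 1114 in DHT. The KO samples read lower in each condition (adjusted p = 0.0682 in FM, 6.35e-06 in EtOH and 7.71e-09 in DHT), but other BAG1 proteins start downstream of the deletion, so this total does not measure Bag-1L. The luminal markers of LNCaP summed to 2890 to 5790 CPM, and 8 basal, stromal and immune markers to 17 to 39.2, of which COL1A1 gave 15.2 to 38.5. The basal markers KRT5 and KRT14 and the immune markers PTPRC and CD68 were at 0 in at least 1 sample. Their highest values were 0.121, 1.25, 0.048 and 0.119 CPM. The basal marker TP63 was at 0.039 to 0.161 CPM, COL3A1 at 0.115 to 1.63 and DCN at 0.0433 to 0.351.

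Levels can be compared between genes only per length, here as RPKM (reads scaled to library size and to the length of the canonical transcript). On this scale the end-joining subunit XRCC6 (Ku70) had a median of 305 over the 12 samples (242 to 352), the abasic-site nuclease APEX1 287 (241 to 364), XRCC5 (Ku80) 149 (137 to 204) and PARP1, the sensor of single-strand breaks, 110 (84.8 to 183). The abundant members thus came from end joining and base excision. The uracil glycosylase UNG followed at 52.3 (37.0 to 82.6). At the other end stood FANCB with 0.826 (0.590 to 2.47), BRIP1 with 1.06 (0.690 to 2.95) and BLM with 1.47 (1.03 to 4.02), and BRCA1 and BRCA2 had medians of 4.05 (3.11 to 11.2) and 2.02 (0.945 to 5.42). The ranges of XRCC6 and APEX1 overlap, as do those of FANCB, BRIP1 and BLM, so the samples do not separate their order.

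The first comparison asked how the repair genes stood in cells kept in FM against hormone-starved cells given EtOH. In the control line 26 of the 57 passed the test as higher in FM and 2 as lower, where 9.81% of all 18549 genes tested were called higher and 11.5% lower (DESeq2, Benjamini-Hochberg adjusted p of at most 0.05 and at least 1.5-fold). In the Bag-1L KO line 27 were higher and 1 lower, against 9.61% and 9.68% of all genes. The median log2 change of the 57 was 0.48 in the control and 0.53 in the KO line, and that of all genes was -0.01 in both. The 22 genes called higher in both lines were BRCA1, BRCA2, RAD51C, RAD54L, RAD54B, XRCC2, BLM, EXO1, MRE11, CHEK1, MSH6, LIG3, PARP1, PARP2, FANCA, FANCB, FANCC, FANCD2, FANCG, FANCI, FANCM and BRIP1. They are 22 of the 26 called in the control (RBBP8, ATR, PRKDC and LIG4 were called there alone) and 22 of the 27 called in the KO (XRCC3, CHEK2, LIG1, UNG and FANCE). By pathway, of the homologous recombination genes 10 of 16 rose in each line, and of the Fanconi anaemia genes 8 of 11 in the control and 9 of 11 in the KO, while no nucleotide excision gene of 7 rose in either.

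**Figure D1:**
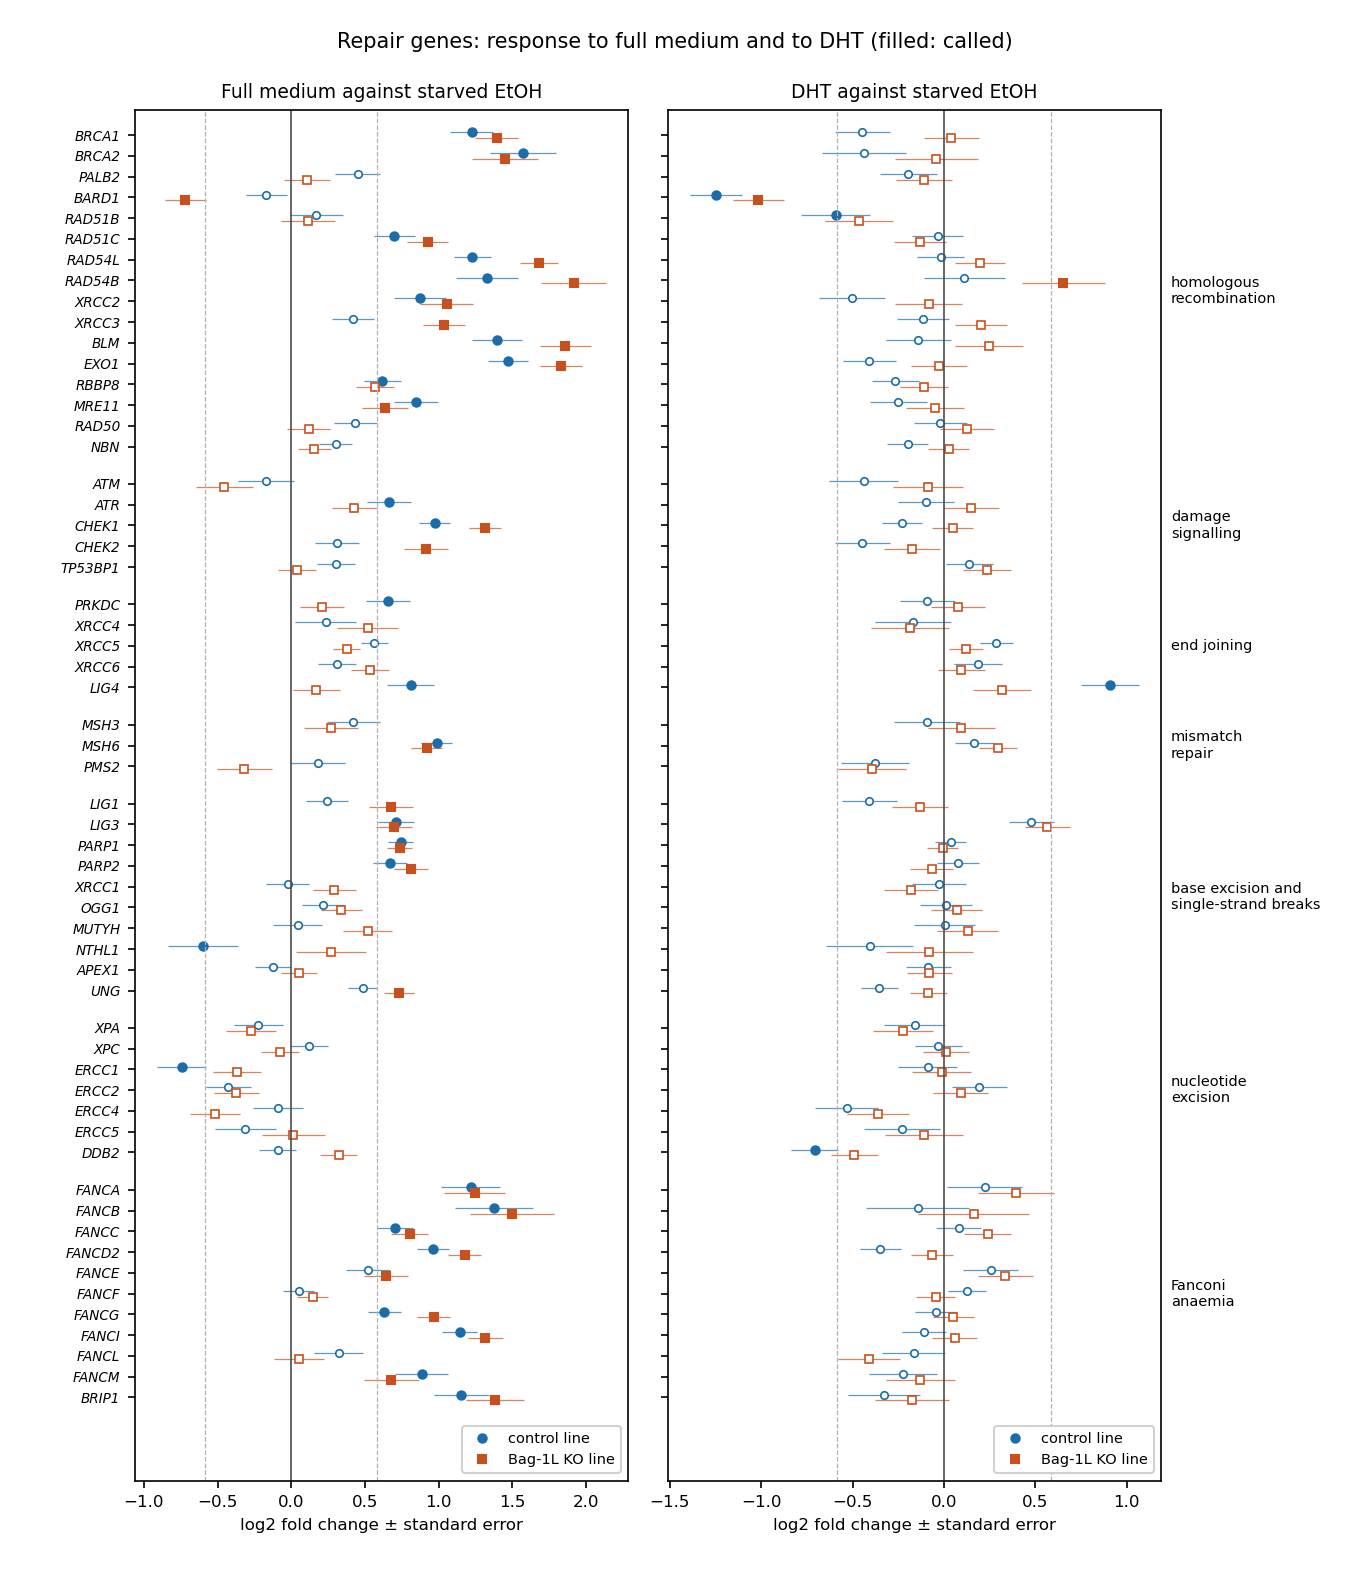
Log2 fold change with its standard error for each of the 57 repair genes, FM against EtOH on the left and DHT against EtOH on the right, with circles for the control line and squares for the Bag-1L KO line; filled symbols passed the test and dashed lines mark a 1.5-fold change. Most homologous recombination and Fanconi anaemia genes lie to the right in FM in both lines, the nucleotide excision genes do not, and under DHT only BARD1 is filled in both lines.

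The first genes described are the mediators and nucleases of homologous recombination. BRCA1 (chr17:41196312-41322262 on GRCh37), a ubiquitin ligase subunit that promotes resection, was counted at 995 and 747 in control EtOH and 2032 and 2044 in control FM, a log2 change of 1.23 ± 0.15 (SE, adjusted p = 1.5e-15), and at 589 and 660 against 1684 and 1598 in the KO (1.39 ± 0.15, adjusted p = 1.82e-19). BRCA2 (chr13:32889223-32974405), a mediator of strand exchange, went from 639 and 380 to 1420 and 1614 in the control (1.57 ± 0.22) and from 522 and 551 to 1580 and 1357 in the KO (1.45 ± 0.22). In neither gene do the EtOH and FM samples of a line overlap. Among all genes tested, FM lay wholly above EtOH in 33.5% in the control and 37.3% in the KO. The control EtOH samples of BRCA2 lie far apart, so that its control change was 1.25 without replicate 2 and 2.00 without replicate 1. EXO1 (chr1:242011269-242058450), an exonuclease of resection and mismatch repair, went from 367 and 409 to 1081 and 1068 in the control, a 2.77-fold rise, and from 209 and 230 to 819 and 743 in the KO, a 3.56-fold rise. The BLM helicase (chr15:91260577-91359396) was at 202 and 202 in control EtOH and 520 and 543 in control FM (1.40 ± 0.17), and at 154 and 127 against 510 and 505 in the KO (1.86 ± 0.18).

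The paired motor proteins of strand exchange behaved alike in direction. RAD54L (chr1:46712133-46744152) rose from 472 and 541 to 1185 and 1187 in the control (1.23 ± 0.13) and from 323 and 338 to 1026 and 1096 in the KO (1.68 ± 0.13). RAD54B (chr8:95384188-95487343) rose from 121 and 96 to 274 and 273 in the control (1.33 ± 0.21) and from 85 and 76 to 306 and 300 in the KO (1.92 ± 0.22, 3.77-fold, the largest change of any member). Its count is uncertain, because 65.5% of its canonical exons lie under the overlapping gene FSBP, and for RAD54L 26.2% lie opposite exons of LRRC41, whose reads cannot be told apart if the counting ignored strand. The other members called in both lines, RAD51C, XRCC2 and MRE11, rose by log2 0.70 to 0.87 in the control and 0.64 to 1.05 in the KO. PALB2, RAD50, NBN and RAD51B were called in neither line, with log2 changes of 0.17 to 0.45 in the control and 0.11 to 0.16 in the KO.

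BARD1 (chr2:215590370-215674407), the partner of BRCA1 in its ubiquitin ligase, did not rise in either line. It was counted at 1441 and 1213 in control EtOH and 1167 and 1192 in control FM (-0.17 ± 0.14, adjusted p = 0.376), and at 1482 and 1641 in KO EtOH and 1011 and 884 in KO FM (-0.72 ± 0.14, adjusted p = 2.39e-06). It was the only one of the 57 called lower in FM in the KO line, and its groups do not overlap there. The difference in its response between the lines was -0.55 and was not called (adjusted p = 0.132).

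The Fanconi anaemia proteins include a clamp and a ligase complex that modifies it. FANCD2 (chr3:10068054-10143616) and FANCI (chr15:89787176-89860492) form the clamp that is ubiquitinated at a stalled fork. FANCD2 rose from 1195 and 1154 to 2252 and 2326 in the control (0.96 ± 0.11) and from 731 and 826 to 1778 and 1746 in the KO (1.18 ± 0.11), and FANCI from 1939 and 1777 to 3988 and 4214 (1.14 ± 0.12) and from 1179 and 1417 to 3284 and 3193 (1.32 ± 0.12). Both parts of the clamp thus rose in each line, by similar amounts. FANCA (chr16:89793091-89883385), a core subunit of the ligase, went from 407 and 249 to 752 and 775 (1.22 ± 0.20) in the control and from 229 and 256 to 589 and 563 (1.25 ± 0.21) in the KO. Its control change was 0.91 without control EtOH replicate 2 and 1.62 without replicate 1. FANCB (chrX:14708510-14891377), another core subunit, went from 82 and 61 to 190 and 181 (1.38 ± 0.26) and from 45 and 42 to 106 and 141 (1.5 ± 0.29). The BRIP1 helicase (chr17:59756500-59940920), a partner of BRCA1, went from 313 and 225 to 576 and 622 (1.16 ± 0.19) and from 174 and 190 to 513 and 436 (1.38 ± 0.19). In each of these 5 genes every FM sample lay above every EtOH sample of its line. The same held for 33.5% of all genes tested in the control and 37.3% in the KO. FANCC, FANCG and FANCM were also called in both lines, by 0.63 to 0.88 in the control and 0.68 to 0.97 in the KO, and FANCE in the KO alone (0.64, with 0.52 in the control, under the 1.5-fold minimum). FANCF, the adaptor of the core complex, was at 1069 and 1117 in control EtOH and 1114 and 1151 in control FM (0.05 ± 0.10), and FANCL, its ligase subunit, changed by 0.32 and 0.05 in the 2 lines, neither called. FANCA has 27.4% of its exons opposite ZNF276, and 8% of the words of FANCD2 recur in the FANCD2P2 pseudogene.

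Of the damage signalling kinases, CHEK1 (chr11:125495058-125546150), the effector that halts the cycle on replication stress, rose from 996 and 1055 to 1960 and 2067 in the control (0.97 ± 0.11) and from 731 and 718 to 1819 and 1791 in the KO (1.32 ± 0.11). ATR (chr3:142167849-142297575), the kinase above it, was at 903 and 715 in control EtOH and 1177 and 1383 in control FM (0.66 ± 0.15, adjusted p = 8.74e-05), and at 625 and 639 against 848 and 854 in the KO (0.43 ± 0.15, adjusted p = 0.0204, under 1.5-fold). CHEK2 (chr22:29083731-29138410), which acts below ATM, was at 670 and 839 against 918 and 950 in the control (0.31 ± 0.15, not called) and at 451 and 532 against 927 and 929 in the KO (0.92 ± 0.15). CHEK1 thus rose in both lines, while CHEK2 was called in the KO and the difference between the lines, 0.61, was not (adjusted p = 0.116). Without control EtOH replicate 2 the control change of ATR was 0.51, under 1.5-fold. ATM itself (chr11:108093771-108239829), the kinase that senses double-strand breaks, was at 1487 and 990 against 1056 and 1142 in the control, groups that overlap (-0.17 ± 0.19), and at 1114 and 1212 against 915 and 784 in the KO (-0.45 ± 0.19, adjusted p = 0.0536). TP53BP1, which opposes resection, changed by 0.31 and 0.04 and was not called.

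In end joining and mismatch repair few genes passed. PRKDC (chr8:48685672-48872738), the catalytic subunit of DNA-PK, was at 7717 and 5820 in control EtOH and 10587 and 10712 in control FM (0.65 ± 0.15, adjusted p = 9.04e-05), and at 7770 and 8362 against 9694 and 8980 in the KO (0.21 ± 0.15, not called). LIG4 (chr13:108859787-108870716), the ligase that seals the joined ends, was at 309 and 282 against 468 and 569 in the control (0.81 ± 0.16) and at 353 and 325 against 383 and 378 in the KO (0.17 ± 0.16, not called). The differences between the lines were -0.44 for PRKDC (adjusted p = 0.284) and -0.64 for LIG4 (adjusted p = 0.123), and without control EtOH replicate 2 the control change of PRKDC was 0.47, under 1.5-fold. No end-joining gene was called in the KO line, although all 5 had positive changes there (0.17 to 0.53). MSH6 (chr2:47922669-48037202), which recognises mismatched bases, rose from 1579 and 1670 to 3203 and 3239 in the control (0.99 ± 0.10) and from 1466 and 1459 to 2686 and 2853 in the KO (0.92 ± 0.11). MSH3 and PMS2 were not called in either line.

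Base excision split by enzyme. PARP1 (chr1:226547911-226595855) rose from 10583 and 11307 to 18594 and 18023 in the control and from 8531 and 8673 to 14198 and 14471 in the KO, by a log2 change of 0.74 ± 0.08 in each. PARP2 and the ligase LIG3 were also called in both, by 0.67 and 0.71 in the control and 0.81 and 0.70 in the KO (for LIG3, 44.8% of the exons lie opposite RFFL). LIG1 (chr19:48618702-48673860), the ligase of the lagging strand, was at 500 and 596 against 703 and 593 in the control, groups that overlap (0.24 ± 0.15), and at 363 and 352 against 575 and 569 in the KO (0.68 ± 0.15, adjusted p = 4.57e-05). UNG (chr12:109535402-109564530), which removes uracil from DNA, was at 2902 and 3285 against 4315 and 4338 in the control (0.48 ± 0.10, under 1.5-fold) and at 2003 and 2009 against 3333 and 3326 in the KO (0.73 ± 0.10). The scaffold XRCC1, the glycosylases OGG1 and MUTYH and APEX1 were called in neither line (-0.12 to 0.22 in the control and 0.05 to 0.52 in the KO). NTHL1, a glycosylase for oxidised pyrimidines that was chosen for its call after its values were seen, was at 583 and 1119 in control EtOH and 596 and 527 in control FM, groups that overlap. Its call as lower (-0.60 ± 0.24, adjusted p = 0.0362) rests on the second EtOH sample, and without that sample the log2 change was -0.05. The call was lost in 5 of 19 alternatives.

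Nucleotide excision repair cuts out bulky lesions. Its 7 genes had a median log2 change of -0.22 in the control and -0.27 in the KO, against 0.77 and 0.98 for homologous recombination and 0.88 and 0.97 for the Fanconi anaemia genes. ERCC1, the partner of the ERCC4 nuclease and likewise chosen after its values were seen, was the 1 gene called, at 943 and 1309 in control EtOH and 682 and 661 in control FM (-0.74 ± 0.16, adjusted p = 4.14e-05). In the KO it was at 1132 and 1051 against 833 and 860 (-0.37 ± 0.16, not called), and 47.1% of its exons lie opposite POLR1G. Without control EtOH replicate 2 its control change was -0.49, under the 1.5-fold minimum. DDB2 (chr11:47236016-47260768), a sensor of ultraviolet damage, was at 803 and 867 against 806 and 761 in the control (-0.09 ± 0.13) and at 848 and 791 against 1040 and 1006 in the KO (0.32 ± 0.13, under 1.5-fold).

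The FM responses of the lines share no samples, but none of the 57 differed between them by DESeq2 (0 called, against 1.39% of all 12971 genes tested, with 12 of the 57 at an unadjusted p under 0.05), and edgeR also called 0. This count rests on the uneven control EtOH pair. Without control EtOH replicate 1, 11 genes were called, XRCC3, CHEK2, MUTYH, NTHL1 and ERCC1 with a positive difference (KO response minus control response) and BARD1, ATM, PRKDC, LIG4, PMS2 and ERCC4 with a negative one, and without replicate 2 none was. The log2 difference between the responses moved with transcript length over all genes tested (Spearman rho -0.50 over 12729 genes) and over the 57 (-0.52), as did the FM response of the control alone (0.19 and 0.37), while that of the KO moved little (-0.03 and 0.04). The part of transcript length in these results was not tested. Of the 22 genes called higher in both lines, all 22 remained called in the control without replicate 2, when 24 were called higher and 0 lower (LIG4 and XRCC5 were the others, and RBBP8, ATR and PRKDC were lost), and all but RAD51C, PARP2 and FANCG remained without replicate 1, when 26 were higher and 3 lower.

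Genes of cell division moved in the same comparison. Of 29 S phase and mitosis markers 26 were called higher in FM in the control and all 29 in the KO, with all 29 of positive sign in each line, among them RRM2 (1.80 and 2.22), a subunit of ribonucleotide reductase, and CDC45 (1.40 and 2.15), of the replicative helicase. Their median level relative to the mean of control EtOH was 0.85 to 1.03 in the 4 FM samples and -0.52 to 0.08 in the starved samples. The Fanconi anaemia genes had medians of 0.90 and 0.91 in control FM and 0.59 and 0.57 in KO FM, with -0.36 to 0.03 in the starved samples, and homologous recombination 0.75 and 0.82, 0.62 and 0.59, and -0.47 to 0.10. The FM samples stood above every starved sample in these 3 groups. They also did so for base excision and single-strand breaks, at 0.18 to 0.28 against at most 0.12 in the starved samples. For nucleotide excision the 12 samples overlapped (-0.33 to 0.12), and FM and starved samples also overlapped for damage signalling, end joining and mismatch repair. Of 16 regulators of the cell cycle and its arrest, E2F factors among them, 7 were higher in FM in each line, with E2F8 (1.86 and 2.24), E2F2 (1.74 and 2.15) and MYBL2 (1.15 and 2.01) among them. The share of cells in S phase was not measured, and its part in the repair gene values was not tested. Of 67 further repair genes, 65 were tested. Among them 20 were higher and 4 lower in the control and 21 and 2 in the KO, among them CLSPN (2.08 and 1.78), the adaptor of CHEK1 activation, MDC1 (1.62 and 1.47) and the nuclease subunit EME1 (1.34 and 1.55), with NEIL1 lower (-1.56 and -1.76).

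**Figure D2:**
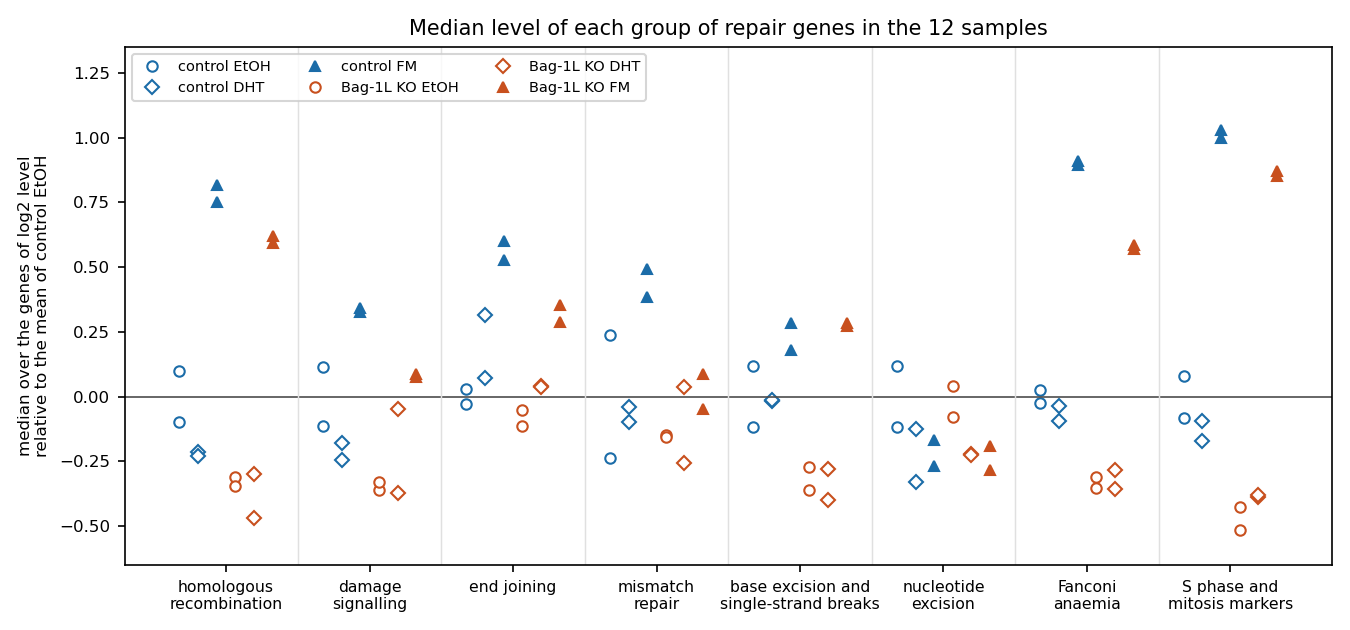
Median over the genes of each repair pathway, and of the S phase and mitosis markers, of the log2 level relative to the mean of the 2 control EtOH samples, with a symbol for each of the 12 samples. The FM samples (filled triangles) stand highest for homologous recombination, the Fanconi anaemia genes and the S phase and mitosis markers. They also stand highest, by less, for base excision and single-strand breaks, and not for the other pathways.

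The second comparison asked which repair genes responded to androgen in starved cells. In the control line 1 of the 57 was called higher under DHT and 3 lower, against 6.04% and 5.37% of all 17535 genes tested, and in the KO line 1 was higher and 1 lower, against 4.43% and 3.24%. The medians were -0.12 and -0.01 on the log2 scale, against -0.02 and -0.01 for all genes. Most repair genes therefore stayed below the thresholds in both lines. This comparison and that of FM share the EtOH samples.

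BARD1 was the gene called in both lines. It fell from 1441 and 1213 to 589 and 530 in the control, a log2 change of -1.25 ± 0.14 (2.37-fold lower, adjusted p = 1.1e-16), and from 1482 and 1641 to 837 and 705 in the KO, a change of -1.02 ± 0.14 (2.02-fold lower, adjusted p = 1.64e-11). No DHT sample reached any EtOH sample of its line. The fall kept its call under every alternative tried, in both lines. BRCA1, its partner, was at 673 and 606 under DHT in the control (-0.45 ± 0.15, adjusted p = 0.0183, under 1.5-fold) and at 684 and 599 in the KO (0.04 ± 0.15).

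The other calls were made in a single line. LIG4 rose in the control from 309 and 282 to 527 and 583 (0.91 ± 0.16, 1.88-fold, adjusted p = 2.33e-07), and in the KO was at 454 and 386 against 353 and 325 (0.32 ± 0.16, adjusted p = 0.212). DDB2 fell in the control from 803 and 867 to 511 and 511 (-0.71 ± 0.13, adjusted p = 1.05e-06) and was at 532 and 634 in the KO (-0.49 ± 0.13, adjusted p = 0.00193, under 1.5-fold). In both genes the DHT and EtOH groups are apart in each line. Among all genes tested, DHT lay wholly above EtOH in 24.6% in the control and 28.4% in the KO, and wholly below in 25% and 30.6%. The difference between the lines was not called for either gene (-0.59, adjusted p = 0.579, and 0.22, adjusted p = 1). RAD51B (chr14:68286496-69196935), which assists strand exchange, went in the control from 196 and 235 to 133 and 152 (-0.59 ± 0.19, adjusted p = 0.0121) and in the KO from 199 and 211 to 154 and 142 (-0.47 ± 0.19, adjusted p = 0.0829). Its call was lost without control EtOH replicate 2 (-0.46), without control DHT replicate 1 (-0.50) and with only the compared groups fitted (-0.58, adjusted p = 0.244). RAD54B rose in the KO from 85 and 76 to 129 and 124 (0.65 ± 0.23, adjusted p = 0.0335), and was at 98 and 137 in the control (0.11 ± 0.22), a call lost in 10 of 19 alternatives.

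For none of the 57 did the DHT response differ between the lines by DESeq2 (0 called, against 0.408% of all 13478 genes tested, with 2 of the 57 at an unadjusted p under 0.05), and edgeR called 0. Without control EtOH replicate 2 the count was 1, BRCA1. The number of genes called lower in the control was 8 without that sample, with BRCA1, BRCA2, XRCC2, ATM, PMS2 and ERCC4 joining BARD1 and DDB2, and 5 without control EtOH replicate 1. Without control DHT replicate 1 it was 7, namely BRCA2, BARD1, XRCC2, ATM, PMS2, ERCC4 and DDB2. Of the S phase and mitosis markers 1 was higher (CDC6) and 1 lower (MCM3) in the control, and 1 higher in the KO (CDC6). Of the other repair genes NEIL1 was lower in both lines (-0.79 and -0.64), and none was higher. The cell cycle inhibitor CDKN1A was called higher (0.83) in the control, with 0.39 in the KO, not called.

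**Figure D3:**
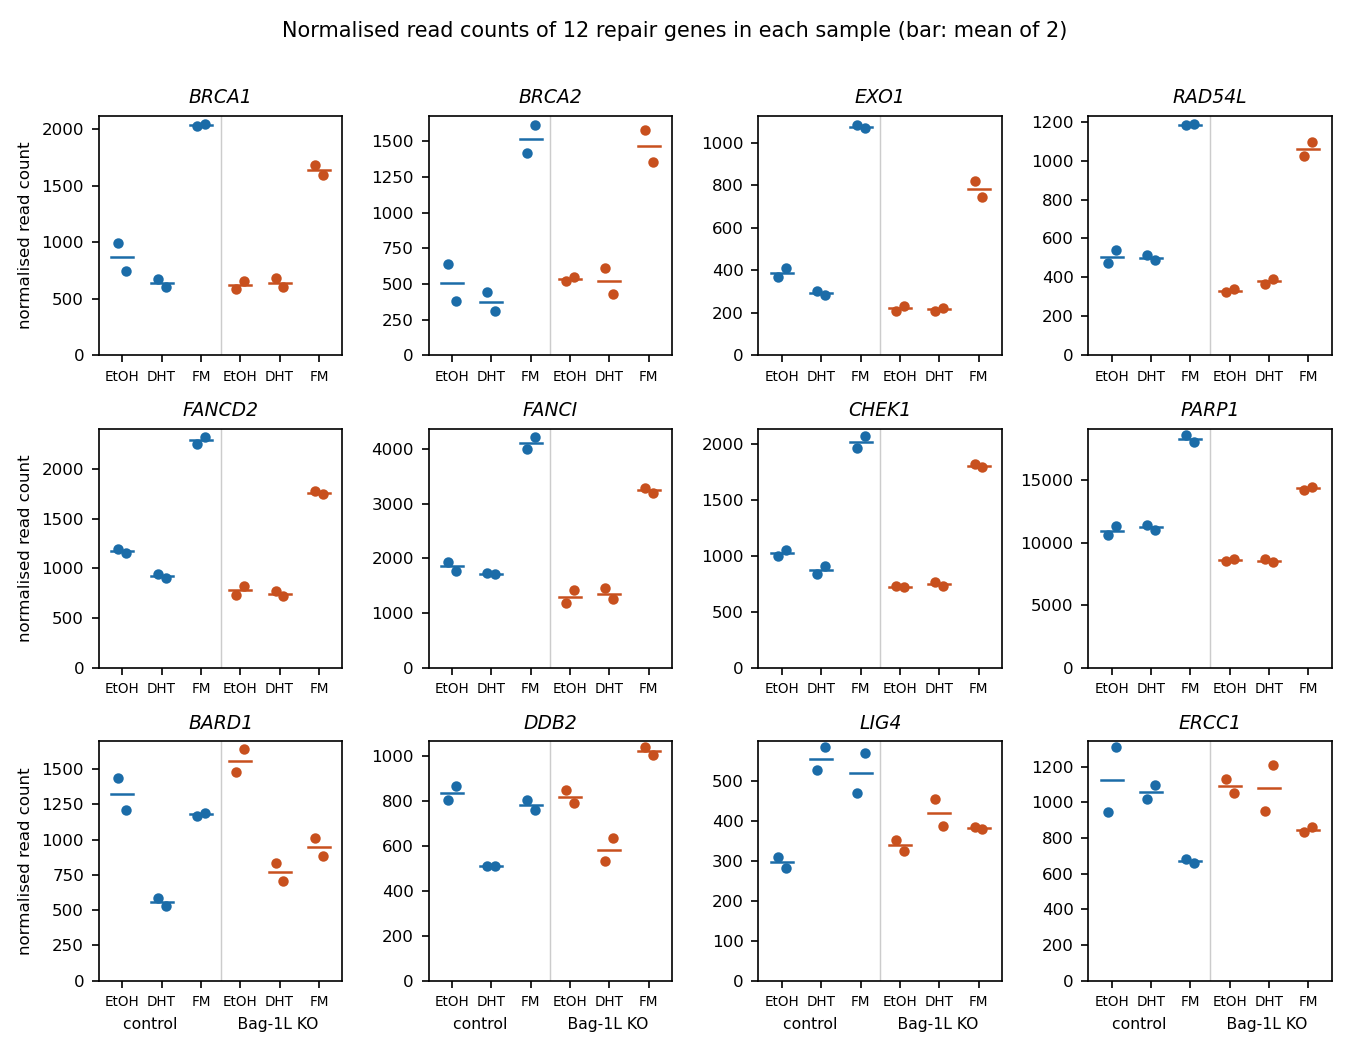
Normalised read counts of 12 repair genes in each sample, with a point per sample and a bar at the mean of 2, the control line on the left of each panel and the Bag-1L KO line on the right, on a linear axis from 0. BRCA1, BRCA2, EXO1, RAD54L, FANCD2, FANCI, CHEK1 and PARP1 are highest in FM in both lines, BARD1 and DDB2 are lowest under DHT, LIG4 is higher under DHT than EtOH, and ERCC1 is lowest in FM.

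The third comparison set the Bag-1L KO against the control line within each condition. It uses the same samples as the FM and DHT comparisons. The low KO EtOH counts of CHEK2, LIG1 and UNG thus enter both their FM rise in the KO and their KO effect in EtOH. In EtOH 6 of the 57 were called lower in the KO and 0 higher, against 2.31% and 2.8% of all 16521 genes tested. In DHT 0 were called, against 4.66% higher and 3.32% lower of all 16014 genes tested, and without control DHT replicate 1 there were 2, BRCA2 higher and PARP2 lower. In FM 1 was lower and 0 were higher, against 2.6% and 5.41% of all 15000. For DHT, where DESeq2 called 0, 15 of the 57 passed the adjusted p without reaching 1.5-fold, 23 had an unadjusted p under 0.05, and edgeR also called 0. For EtOH and FM, 25 and 24 of the 57 had an unadjusted p under 0.05 in either direction, and edgeR called 6 and 0, all lower. The median log2 difference of the 57 was -0.27 for EtOH, -0.13 for DHT and -0.21 for FM, while all genes had -0.01, -0.02 and -0.01. The log2 difference was below 0 in all 3 conditions for 31 of the 57 and above 0 in all 3 for 4. Among all genes tested it was below 0 for 8616 of 16521 in EtOH, 8361 of 16014 in DHT and 7708 of 15000 in FM. The share of all genes with 1 sign in all 3 conditions was not counted. By pathway, the 11 Fanconi anaemia genes were negative in 10, 11 and 10 cases in EtOH, DHT and FM. Homologous recombination had 8 positive and 8 negative genes in DHT, and nucleotide excision had 5 of 7 positive in both DHT and FM.

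The 6 genes lower in EtOH came from several pathways. EXO1 was at 367 and 409 in the control and 209 and 230 in the KO (-0.82 ± 0.15, 1.76-fold lower, adjusted p = 2.34e-06), UNG at 2902 and 3285 against 2003 and 2009 (-0.62 ± 0.10, adjusted p = 7.39e-08) and FANCD2 at 1195 and 1154 against 731 and 826 (-0.59 ± 0.11, adjusted p = 7.2e-06). RAD54L was at 472 and 541 against 323 and 338 (-0.61 ± 0.13), CHEK2 at 670 and 839 against 451 and 532 (-0.62 ± 0.15) and LIG1 at 500 and 596 against 363 and 352 (-0.62 ± 0.15). In none of the 6 do the KO and control samples overlap. The KO samples lay wholly below the control samples in 23.5% of all genes tested. In DHT the same 6 had log2 differences of -0.44 (EXO1), -0.36 (UNG), -0.31 (FANCD2), -0.40 (RAD54L), -0.35 (CHEK2) and -0.34 (LIG1), and in FM of -0.46, -0.38, -0.38, -0.16, -0.01 and -0.18, none of which was called. Which genes were called depended on the control EtOH pair. Without replicate 1 the 6 called were RAD54L, EXO1, CHEK2, LIG1, NTHL1 and UNG, and without replicate 2 they were BRCA1, XRCC2, EXO1, FANCA, FANCD2 and BRIP1, so that EXO1 was called whichever of the pair was left out. EXO1 was also the 1 gene of the 6 called under all 19 alternatives. Without KO EtOH replicate 1, CHEK2 and FANCD2 lost their calls, and with only the compared groups fitted RAD54L, CHEK2 and LIG1 did.

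**Figure D4:**
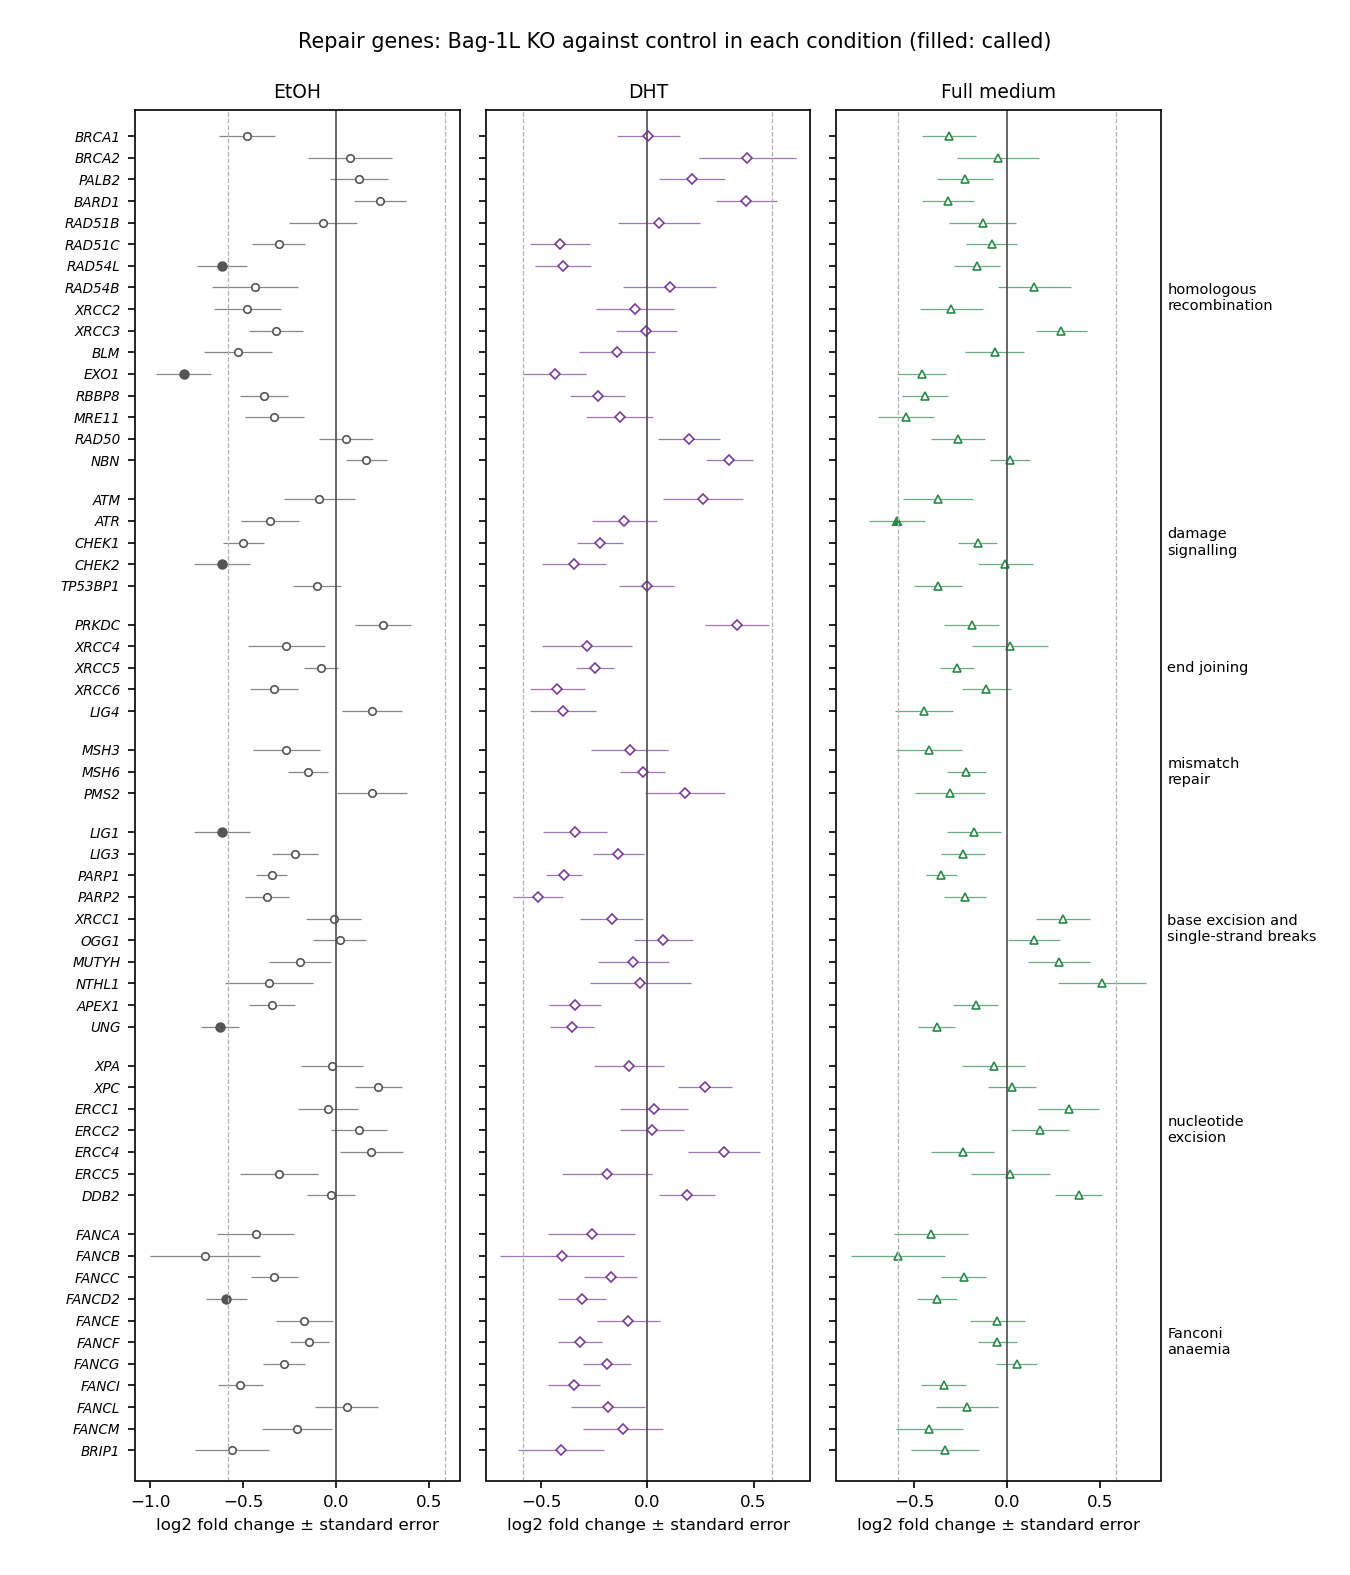
Log2 fold change of the Bag-1L KO against the control line, with its standard error, for each of the 57 repair genes in EtOH, DHT and FM; filled symbols passed the test and dashed lines mark a 1.5-fold change. Most points lie left of 0, with 6 filled in EtOH, 0 in DHT and 1 (ATR) in FM.

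In FM the 1 gene called was ATR, at 1177 and 1383 in the control and 848 and 854 in the KO (-0.59 ± 0.15, adjusted p = 0.00172). Its fold change lies at the minimum of 1.5, and the call was lost in 8 of 19 alternatives, edgeR included (-0.57, adjusted p = 0.013). Its values in EtOH were 903 and 715 against 625 and 639 (-0.36 ± 0.15, adjusted p = 0.14) and in DHT 755 and 756 against 779 and 621 (-0.11 ± 0.15), where the groups overlap. PARP1 was lower in the KO in all 3 conditions by a near-equal amount that stayed under 1.5-fold, with log2 differences of -0.35 ± 0.08 in EtOH, -0.39 ± 0.08 in DHT and -0.35 ± 0.08 in FM, each with an adjusted p of 0.00107 or less. BRCA1 differed by -0.48 in EtOH, 0.00 in DHT and -0.31 in FM, and BRCA2 by 0.08, 0.47 and -0.05. PRKDC differed by 0.25, 0.42 and -0.19, and ATM by -0.09, 0.26 and -0.37, none of them called. The difference in FM moved with transcript length over all genes (Spearman rho -0.32 over 14650) and over the 57 (-0.52), and its part in these values was not tested.

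For BARD1 the KO and control samples did not overlap in any of the 3 conditions. In a single condition 23.4% to 38.6% of all genes tested lay apart in a given direction. In EtOH the KO samples were the higher, at 1482 and 1641 against 1441 and 1213 (0.24 ± 0.14, adjusted p = 0.342). In DHT it was at 589 and 530 in the control and 837 and 705 in the KO (0.47 ± 0.14, adjusted p = 0.0115, under 1.5-fold), and in FM at 1167 and 1192 against 1011 and 884 (-0.32 ± 0.14, adjusted p = 0.0969). The difference between these KO effects was 0.78 ± 0.20 on the log2 scale (adjusted p = 0.0102), the 1 call among the 57 in a comparison that called 2.28% of all 12971 genes tested. That comparison was added after the values had been seen, and its call was lost in 6 of 19 alternatives, edgeR included (0.79, adjusted p = 0.069). With control EtOH replicate 1 or replicate 2 left out in turn, ATM, PRKDC and ERCC4 were called beside BARD1. No EtOH sample enters this difference, but all samples share the fit and its estimate of the spread.

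Most S phase and mitosis markers read lower in the KO in EtOH and DHT. Of the 29, the log2 difference was below 0 for 28 in EtOH, 27 in DHT and 22 in FM. In DESeq2 27, 22 and 12 had an unadjusted p under 0.05 in either direction, and the medians were -0.50, -0.37 and -0.16. With the 1.5-fold minimum 8 were called lower in EtOH, 5 in DHT and 0 in FM. CDC6 (-0.92 in EtOH and -0.86 in DHT) and CDC45 (-0.91 and -0.76) were among them, and E2F1, E2F2, E2F8 and MYBL2 were also called lower in EtOH (-0.64 to -0.85). Of the 65 other repair genes tested 4 were lower in EtOH, NEIL3, FEN1, RPA3 and RFC5 (-0.60 to -0.68), 3 in DHT, and in FM 1 was lower (CLSPN, -0.61) and 2 higher (MGMT, 0.64, and RECQL4, 0.59). The part of cell division in the lower repair gene values was not tested.

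Over all comparisons 36 of the 57 genes were called at least once and 21 in none. The share of all genes called at least once was not counted, so these numbers do not set the repair genes apart. In FM against EtOH alone, 21.3% of all genes tested were called in the control and 19.3% in the KO. The uncalled genes were spread over the pathways: PALB2, RAD50 and NBN of homologous recombination, ATM and TP53BP1 of damage signalling, XRCC4, XRCC5 and XRCC6 of end joining, MSH3 and PMS2 of mismatch repair, XRCC1, OGG1, MUTYH and APEX1 of base excision, XPA, XPC, ERCC2, ERCC4 and ERCC5 of nucleotide excision, and FANCF and FANCL. Among those past the adjusted p, XRCC5 had the largest change, 0.56 ± 0.09 in FM in the control (adjusted p = 9.48e-09), short of 1.5-fold, and it was called without control EtOH replicate 2. The counts of ERCC5 (91.7% of its exons under BIVM-ERCC5), XRCC6 (20.6% of its words in a pseudogene) and PMS2 (17% in PMS2CL) are uncertain, because reads that fit several places or genes were not counted.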

How the data were processed

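Raw read counts per Ensembl gene were deposited by the authors for each of the 12 samples, without normalisation or pooling. Per the labels, poly(A) RNA was prepared with a stranded TruSeq kit, and the submitters' processing notes name CASAVA 1.7, TopHat2 2.0.11 and HTSeq 0.5.3p3. Reads were mapped to GRCh37. The strand setting of the counting and the Ensembl release are not given in the sources used here. HTSeq leaves out reads that map to several places or overlap several genes.

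Genes with at least 10 counts summed over the samples were kept (26156). DESeq2 1.42.0 (R 4.3.3) was fitted to all 12 samples at once with a coefficient per group, median-of-ratios size factors, Wald tests, unshrunken log2 fold changes and no replicate block. A gene was called at a Benjamini-Hochberg adjusted p of at most 0.05, over all genes tested, and at least 1.5-fold. Groups came from the labels. The fit was tested on simulated counts with known changes. Of the identifiers, 55665 were found in GENCODE gene models on GRCh37, from which positions, lengths and overlaps were taken, and shared words were runs of 50 bases of the canonical transcript.

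Values are printed in full for members called between the lines, for up to 12 called members with the largest changes and a mean normalised count of at least 50 in each DHT or FM comparison, and for BRCA1, BRCA2, ATM, PARP1, PRKDC and DDB2. NTHL1, ERCC1 and other members outside this rule were named after their values were seen. The members and the gene lists were chosen with earlier results of these data known. Alternatives were edgeR 4.0.16 with TMM, TMM size factors, both filters on low counts, fitting the compared groups alone, a replicate block, thinned counts, no fold minimum and each sample left out. The difference of the KO effect between DHT and FM was added after the data were seen.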

Additional observations from a re-analysis of the deposited data

Results flagged for a closer look

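BARD1 differed in its KO effect between DHT and FM by a log2 difference of 0.78 (DESeq2, adjusted p = 0.0102). Of the tests comparing a response or a KO effect between lines or conditions, BARD1 gave the 1 call among the 57 genes. Its values were 589 and 530 in control DHT against 837 and 705 in KO DHT, and 1167 and 1192 in control FM against 1011 and 884 in KO FM. Over the leave-one-out fits the difference ranged from 0.65 to 0.90. The comparison was added after the values had been seen. Its call was lost in 6 of 19 alternatives, edgeR included (0.79, adjusted p = 0.069).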

How the results depend on the processing

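Of 70 calls on single repair genes, 51 held under all 19 alternatives and 19 were lost under at least 1, and none of the values changed sign. TMM scaling moved the median of all genes by less than 0.1 on the log2 scale in the planned comparisons. With no fold minimum the number of the 57 called went from 4 to 14 for DHT in the control, 2 to 5 for DHT in the KO, 6 to 15 for KO against control in EtOH, 0 to 15 in DHT and 1 to 12 in FM. The single FM call between the lines became 0 with edgeR, with TMM size factors, with at least 10 counts in every sample, with only the compared groups fitted and with thinned counts. Fitting only the compared groups left 3 of the 6 in EtOH, and thinning left 1 of the 2 for DHT in the KO. With each sample left out in turn the counts ran from 4 to 9 for DHT in the control, 1 to 2 for DHT in the KO, 0 to 1 for their difference, 4 to 6, 0 to 2 and 0 to 2 for KO against control in EtOH, DHT and FM, 24 to 29 for FM in the control, 27 to 29 for FM in the KO and 0 to 11 for their difference. The highest counts for the differences came without control EtOH replicate 2 (DHT) and without control EtOH replicate 1 (FM), and that for KO against control in DHT without control DHT replicate 1. A lone sample left in a group is assumed to vary like the others. Over 15 pairs of groups the correlation of the deviations between replicates ran from -0.415 to 0.692, and 6 were over 0.1. All 6 lay among control EtOH, control DHT, KO DHT and KO FM. The deviations also moved with transcript length, so these correlations cannot settle whether replicate numbers pair the samples. With the replicate block the counts were 4 and 2 for DHT, 6, 0 and 1 between the lines, 27 and 28 for FM and 0 for both differences; the call lost was NTHL1 (-0.55). Genes at few counts, such as FANCB, have the widest errors.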

Other observations

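In 16 cases over 12 repair genes the samples of a group pair did not overlap and lay in opposite directions in a second pair. The share of all genes with such cases was not counted, so this number does not set the repair genes apart. In a single KO or DHT comparison 23.4% to 38.6% of all genes tested lay apart in a given direction. Each of the 16 differences was tested. Beside BARD1 none passed. The nearest were XRCC3, with a KO effect in FM that exceeded that in EtOH by 0.62 on the log2 scale (adjusted p = 0.0835), and PRKDC, with a KO effect in DHT that exceeded that in FM by 0.61 (adjusted p = 0.09).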
